A study of Mus musculus with 3 samples.

Results

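The Kupffer cell identity genes described here are Clec4f, Timd4, Vsig4, Cd5l, Marco, Folr2, C6, Id3, Nr1h3 and Spic, taken by gene symbol from the 31253 genes that each library listed. All 10 were found once by that rule, and all 10 passed the minimum of 20 UMIs used for ratios in macrophages. They were followed in macrophages, defined as cells with at least 3 UMIs of C1qa, C1qb and C1qc together, in monocyte-like cells and in the other classes. The data are 3 droplet libraries of single cells from mouse liver. The library labelled dHep_IR came from the genotype with Gsdmd deleted in hepatocytes, given 30 Gy of irradiation, with harvest after 7 days. The library labelled FL_IR came from the genotype with a floxed Gsdmd gene, given the same 30 Gy and the same 7 days. The library labelled FL_control came from the floxed genotype without irradiation. The sample tags name the floxed genotype WT and the deleted one a Gsdmd knockout without naming hepatocytes. The sources used here do not state the driver of the deletion, the age of the mice, the exposed part of the body or whether a library pools animals.

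Since every group is a single library, variation among mice was not measured and groups could not be tested against each other. Intervals in brackets are 95 percent intervals and cover counting error only. Gsdmd, the pore-forming protein of pyroptosis, was checked first because its deletion defines the groups. In C1q-gated macrophages Gsdmd stood at 48.1 CPM (UMIs of the gene per 1000000 UMIs of the same cells) in the library labelled dHep_IR, 8.35 CPM in the library labelled FL_IR and 48.7 CPM in the library labelled FL_control. It was lowest in FL_IR in other classes too, with 37.2, 6.32 and 78.5 CPM in neutrophil-like cells of dHep_IR, FL_IR and FL_control. The labelled deletion concerns hepatocytes, of which dHep_IR held 8 with 1 Gsdmd UMI, so it could not be checked there, but the low value in a library labelled floxed goes against the label. Whether the labels of the irradiated libraries are exchanged could not be settled from these files. If they are, every dHep_IR against FL_IR value below is to be read the other way round, and the comparisons with FL_control change places. The deletion label names hepatocytes, while the low values were seen in macrophages and neutrophil-like cells, and the reason for this was not tested. The groups are therefore named by their library labels throughout.

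Kupffer cells are the resident macrophages of the liver sinusoids, where they clear bacteria, dying cells and aged red cells from the blood. Their identity is set by transcription factors that include liver X receptor alpha (Nr1h3), Id3 and Spi-C, and it shows at the surface in lectin, scavenger, complement, folate and phosphatidylserine receptors. Clec4f is a usual surface mark of Kupffer cells, and Timd4 is one of long-resident Kupffer cells. Monocytes that enter an emptied niche are known to acquire both over time.

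The 3 libraries held 7261, 6545 and 6458 cells after filtering in dHep_IR, FL_IR and FL_control, with medians of 7967, 7409 and 5838 UMIs per cell. Barcodes shared between libraries numbered 32 for dHep_IR and FL_IR, 60 for dHep_IR and FL_control, and 10 for FL_IR and FL_control, and at most 8 gated macrophages shared a barcode with another library. Classes were named from fixed markers that hold none of the 10 genes, and clustering also left the 10 genes out. All 9 Kupffer markers, C1qa, C1qb and C1qc among them, were detected in the clusters called Kupffer-like. All 9 were also detected in the clusters led by Prg4 and by cycling genes. Rules on leading genes, in part set after the clusters were seen, kept those clusters unnamed. Most Kupffer-like cells of dHep_IR and FL_IR lay in cluster 11, which held 362 and 451 of them, while 563 of FL_control lay in cluster 26, so the irradiated and unirradiated cells fell into different clusters without the genes described here.

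The gate took 751 cells in dHep_IR, 531 in FL_IR and 909 in FL_control, or 10.3 percent (9.65 to 11.1), 8.11 percent (7.46 to 8.80) and 14.1 percent (13.2 to 14.9) of kept cells. These cells were not of 1 kind. Kupffer-like clusters held 364 of them in dHep_IR, 452 in FL_IR and 569 in FL_control, which is 48.5, 85.1 and 62.6 percent of the gated cells. Monocyte-like clusters held 309 in dHep_IR, against 23 in FL_IR and 14 in FL_control. Of these, 247, 12 and 14 lay in cluster 7, where all 10 monocyte markers were detected. Its leading genes included the MHC class II genes H2-Eb1, H2-Ab1 and H2-Aa. The other 62, 11 and 0 lay in cluster 10, led by Vcan, F13a1 and Prtn3. An unnamed cluster led by Prg4, Alox15 and Serpinb2 held 1 gated cell of dHep_IR and 0 of FL_IR, against 79 of FL_control. The remaining gated cells, 77, 56 and 247, were mostly endothelial-like cells with a median of 4 or 5 C1q UMIs, beside a median of 114.5, 97.5 and 176 in the Kupffer-like cells of dHep_IR, FL_IR and FL_control. Cells with 3 to 9 C1q UMIs made up 15.4, 13.6 and 26.7 percent of the gated cells of the 3 libraries. The gate was thus 41.1 percent monocyte-like in dHep_IR, against 4.33 percent in FL_IR and 1.54 percent in FL_control.

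**Figure D1:**
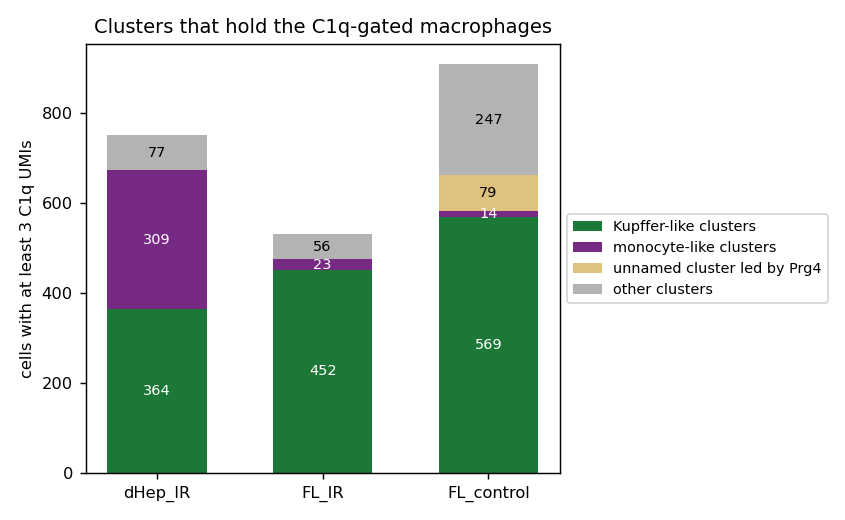
Number of C1q-gated macrophages (y axis, cells) in each library, stacked by the cluster class that held them. The monocyte-like block has 309 cells in dHep_IR, 23 in FL_IR and 14 in FL_control, and the cluster led by Prg4 has 79 cells in FL_control.

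Because of this makeup the values are given first for the gated cells inside Kupffer-like clusters and then for the whole gate. Inside Kupffer-like clusters Marco was far higher in both irradiated libraries than in FL_control, Folr2 was lower in both, Clec4f was lowest in dHep_IR and highest in FL_control, and Timd4 levels had overlapping intervals in all 3. In the whole gate of dHep_IR, 6 of the 10 genes were at least 2-fold below FL_IR, where 11.6 percent of all genes tested were, and inside Kupffer-like clusters 1 was, where 6.61 percent were.

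Short stretches of promoter are shown for Marco, the gene with the largest difference between libraries, and for Timd4, the gene with the smallest. Each is the 250 bases before the annotated start, on the strand of the gene, from RefSeq (GRCm38.p6, the build of the files). Capitals mark GAGGAA, the core of sites bound by the factors PU.1 and Spi-C, or AGGTCA, a core element shared by many nuclear receptors including liver X receptors, on either strand. The Marco stretch lies at chr1:120505025-120505274 on the minus strand and the Timd4 stretch at chr11:46810549-46810798 on the plus strand.
Marco: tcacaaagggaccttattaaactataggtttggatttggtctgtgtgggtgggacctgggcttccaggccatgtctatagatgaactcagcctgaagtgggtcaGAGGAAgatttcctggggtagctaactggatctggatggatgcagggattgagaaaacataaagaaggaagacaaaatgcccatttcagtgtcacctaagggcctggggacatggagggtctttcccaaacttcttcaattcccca
Timd4: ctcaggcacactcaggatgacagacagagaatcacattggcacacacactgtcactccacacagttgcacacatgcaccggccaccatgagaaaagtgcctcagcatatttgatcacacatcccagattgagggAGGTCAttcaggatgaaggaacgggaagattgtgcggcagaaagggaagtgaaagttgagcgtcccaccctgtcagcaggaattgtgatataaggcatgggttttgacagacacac
The Marco stretch held GAGGAA 146 bases before the start, and the Timd4 stretch held AGGTCA 116 bases before it. RefSeq gives 12 starts for the 10 genes. GAGGAA was in the stretches of 4 genes (Vsig4, Cd5l, Marco and Id3), and 23.3 percent of all 32851 promoter stretches of this length held it. AGGTCA was in those of 3 genes (Clec4f, Timd4 and C6), against 14.0 percent of all stretches. The 2 motifs did not overlap each other, and a match in these letters is a description of the sequence, not a binding site.

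**Figure D2:**
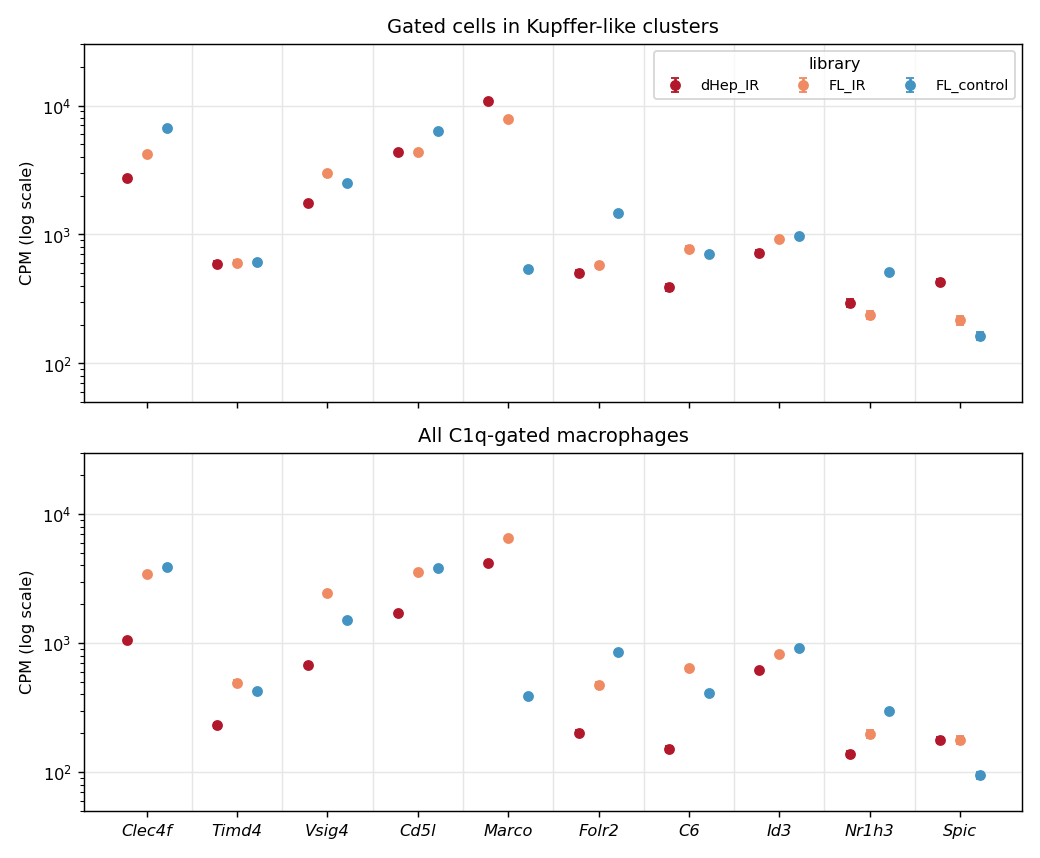
CPM (log axis) of each gene in the 3 libraries, with points for the summed UMIs and bars for the 95 percent counting interval, for gated cells in Kupffer-like clusters (top) and for all gated macrophages (bottom). In Kupffer-like cells Marco stands at 10805 CPM in dHep_IR, 7882 CPM in FL_IR and 542 CPM in FL_control, while the 3 points of Timd4 lie between 595 and 616 CPM.

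Marco (ENSMUSG00000026390) spans chr1:120474538-120505024 on the minus strand of GRCm38 and encodes a class A scavenger receptor that binds bacteria and modified lipoproteins. In Kupffer-like cells it had 36656 UMIs in dHep_IR, 24637 in FL_IR and 3092 in FL_control, which is 10805 CPM (10695 to 10916), 7882 CPM (7784 to 7981) and 542 CPM (523 to 562). The level was 19.9-fold higher in dHep_IR than in FL_control (19.2 to 20.7) and 14.5-fold higher in FL_IR than in FL_control (14.0 to 15.1). Between the irradiated libraries it was 1.37-fold higher in dHep_IR (1.35 to 1.39), but in the whole gate it was 1.54-fold lower in dHep_IR (1.51 to 1.56), with 4206 CPM in dHep_IR, 6473 CPM in FL_IR and 390 CPM in FL_control. Both irradiated libraries were thus high and the control low, a gap far wider than counting error.

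The difference in Marco lay in the share of cells as well as in the amount per cell. With each cell thinned to 2000 UMIs, 97.0 percent of Kupffer-like cells in dHep_IR, 95.4 percent in FL_IR and 31.8 percent (27.8 to 36.1) in FL_control had a Marco UMI. Without thinning the shares were 97.8, 96.9 and 48.7 percent. T-like cells, which should lack the gene, had thinned shares of 2.53, 2.75 and 0.172 percent and median depths of 6064, 5990 and 6308 UMIs, beside 7013.5, 4928.5 and 9513 in the Kupffer-like cells. Thinning left out 68, 124 and 57 Kupffer-like cells with fewer than 2000 UMIs. The control share was above the T-like one, so part of the control Kupffer-like cells carried Marco. Their median was 0 Marco UMIs per 10000 UMIs of the cell with a 90th percentile of 22.4, while the median was 103 in dHep_IR and 66.7 in FL_IR.

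Control Kupffer-like cells with and without Marco were compared as a description. The 277 control cells with a Marco UMI had 6645 CPM of Clec4f, 629 of Timd4, 2539 of Vsig4 and 1499 of Folr2. The 292 control cells without one had 6863, 601, 2512 and 1415 CPM of the same genes. Cd5l had 6808 CPM in the cells with Marco and 5879 CPM in those without, Nr1h3 539 and 475 CPM, C6 739 and 672 CPM, Spic 167 and 160 CPM, and Id3 952 and 1005 CPM. In the 92 control cells with at least 10 Marco UMIs, Cd5l stood at 7330, Nr1h3 at 616 and Spic at 217 CPM. The same 92 cells had 695 CPM of C6, 619 of Timd4, 1014 of Id3 and 1418 of Folr2. Their 6538 CPM of Clec4f and 2399 of Vsig4 were below the cells without Marco. In the 277 cells with a Marco UMI most of these genes were somewhat higher, and Clec4f and Id3 were lower. Id3 was not lower in the 92 cells. Counting intervals are not given for this split, so small differences may be counting error. The cells with Marco were deeper, with a median of 11284 UMIs against 8072.5 in those without.

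**Figure D3:**
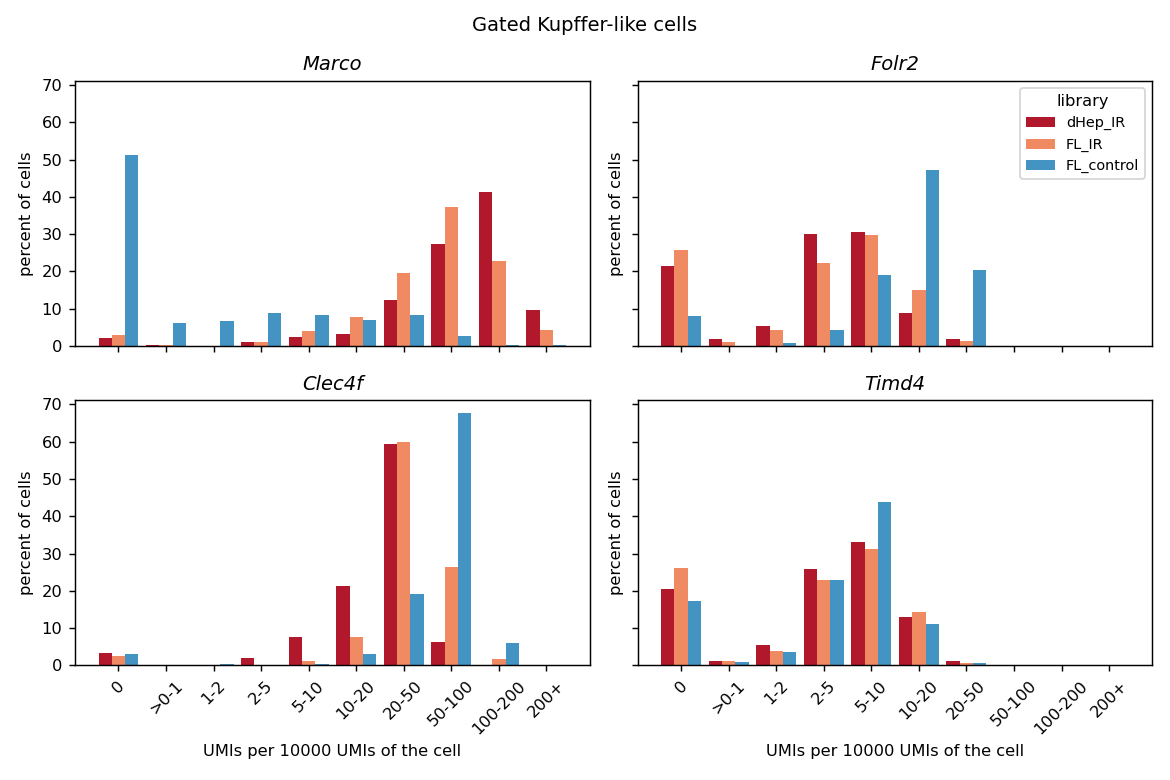
Distribution over gated Kupffer-like cells (y axis, percent of the library's cells) of the UMIs of 4 genes per 10000 UMIs of the cell (x axis, unequal bins). Cells with no Marco UMI are 2.20 percent in dHep_IR and 3.10 percent in FL_IR, against 51.3 percent in FL_control. Clec4f has 1 peak in each library, at lower values in the irradiated ones. The largest Timd4 bin is 5 to 10 in each library, with 33.0 percent of cells in dHep_IR, 31.2 percent in FL_IR and 43.8 percent in FL_control.

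Folr2 (chr7:101839988-101857194, minus strand) encodes folate receptor beta, a mark of tissue-resident macrophages. In Kupffer-like cells it stood at 506 CPM (483 to 531) in dHep_IR, 578 CPM (552 to 606) in FL_IR and 1460 CPM (1429 to 1492) in FL_control. That is 2.88-fold lower in dHep_IR (2.74 to 3.04) and 2.52-fold lower in FL_IR (2.40 to 2.66) than in FL_control. Both irradiated libraries were low and close to each other, with dHep_IR 1.14-fold below FL_IR (1.07 to 1.22). After thinning to 2000 UMIs, 55.7, 58.5 and 87.5 percent of cells had a Folr2 UMI in dHep_IR, FL_IR and FL_control, beside at most 0.859 percent of T-like cells.

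Marco and Folr2 were detected in different combinations. Cells with Folr2 and no Marco were 2.03 percent of thinned Kupffer-like cells in dHep_IR and 2.74 percent in FL_IR, against 59.0 percent in FL_control. Cells with Marco and no Folr2 were 43.2 percent in dHep_IR and 39.6 percent in FL_IR, against 3.32 percent in FL_control. Cells with both made up 53.7, 55.8 and 28.5 percent. Most irradiated cells thus had UMIs of both genes or of Marco alone, and most control cells had UMIs of Folr2 alone. These combinations largely follow from the shares of each gene given above, and a link between the genes within cells was not tested. A thinned cell without a Folr2 UMI may still express the gene.

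Clec4f (chr6:83644542-83656187, minus strand) encodes a C-type lectin found in mice almost solely on Kupffer cells, where it binds desialylated glycans on platelets and other cells. In Kupffer-like cells it had 2726 CPM (2671 to 2782) in dHep_IR, 4195 CPM (4124 to 4268) in FL_IR and 6746 CPM (6679 to 6814) in FL_control. It was 1.54-fold lower in dHep_IR than in FL_IR (1.499 to 1.581), 2.47-fold lower in dHep_IR than in FL_control (2.42 to 2.53) and 1.61-fold lower in FL_IR than in FL_control (1.58 to 1.64). The share of cells with a Clec4f UMI after thinning was 97.6, 99.7 and 96.7 percent, so nearly all Kupffer-like cells in each library had the gene and the libraries differed in its amount. The median was 25.2 Clec4f UMIs per 10000 in dHep_IR, 40.8 in FL_IR and 64.7 in FL_control.

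Timd4 (chr11:46810800-46844332, plus strand) encodes a phosphatidylserine receptor for dying cells. In Kupffer-like cells it had 595 CPM (570 to 622) in dHep_IR, 603 CPM (576 to 631) in FL_IR and 616 CPM (596 to 637) in FL_control. The 3 intervals overlapped, and the ratio of dHep_IR to FL_IR was 0.987 (0.926 to 1.05) and that of FL_IR to FL_control 0.980 (0.926 to 1.04). The thinned shares of cells with Timd4 were 66.9, 60.7 and 64.3 percent. No T-like cell had the gene after thinning (0 of 198 cells in dHep_IR, a count that does not exclude a share of 1.52 percent). Nearly every Timd4 cell also had Clec4f, as did nearly every Kupffer-like cell. Thinned Kupffer-like cells with both genes were 65.5, 60.7 and 64.1 percent, and those with Timd4 and no Clec4f were 1.35, 0 and 0.195 percent, which is 4 cells, 0 cells and 1 cell.

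Vsig4 (chrX:96247203-96293438, minus strand), a complement receptor that captures bacteria coated with C3 fragments, was lowest in dHep_IR. It had 1744 CPM (1699 to 1789) in dHep_IR, 2991 CPM (2931 to 3053) in FL_IR and 2526 CPM (2485 to 2568) in FL_control. This is 1.72-fold lower in dHep_IR than in FL_IR (1.66 to 1.77), and 1.18-fold higher in FL_IR than in FL_control (1.15 to 1.22). Neither passed 2-fold.

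The secreted proteins Cd5l and C6 did not go together. Cd5l (chr3:87357881-87371073, plus strand), an apoptosis inhibitor that macrophages release into the blood, stood at 4362 CPM (4292 to 4433) in dHep_IR, 4351 CPM (4278 to 4424) in FL_IR and 6377 CPM (6312 to 6443) in FL_control. The irradiated libraries had overlapping intervals, and each was below the control, by 1.46-fold in dHep_IR and 1.47-fold in FL_IR. C6 (chr15:4727175-4814967, plus strand), a component of the membrane attack complex, had 388 CPM (368 to 410) in dHep_IR, 777 CPM (746 to 809) in FL_IR and 708 CPM (686 to 730) in FL_control. It was 2.002-fold lower in dHep_IR than in FL_IR (1.871 to 2.142), just past the 2-fold mark with an interval that reached below it. The thinned share of cells with C6 was 54.1 percent in dHep_IR, 74.1 percent in FL_IR and 73.2 percent in FL_control.

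Among the transcription regulators, Nr1h3 was lower and Spic higher in the irradiated libraries, and Id3 differed by at most 1.35-fold. Nr1h3 (chr2:91184061-91202834, minus strand), the oxysterol-activated liver X receptor alpha, had 294 CPM (277 to 313) in dHep_IR, 238 CPM (221 to 256) in FL_IR and 509 CPM (491 to 528) in FL_control. It was 2.14-fold lower in FL_IR than in FL_control (1.97 to 2.32) and 1.73-fold lower in dHep_IR than in FL_control (1.61 to 1.86). In the annotation a predicted gene on the same strand, Gm13783, overlaps Nr1h3, and how the authors' counting assigned reads between them is not stated.

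Spic (chr10:88674772-88685015, minus strand) encodes an ETS-family factor that haem induces in iron-recycling macrophages. It had 429 CPM (408 to 452) in dHep_IR, 216 CPM (200 to 233) in FL_IR and 163 CPM (153 to 174) in FL_control. The level was 1.99-fold higher in dHep_IR than in FL_IR (1.81 to 2.18), 2.63-fold higher in dHep_IR than in FL_control (2.42 to 2.86) and 1.32-fold higher in FL_IR than in FL_control (1.19 to 1.46). The shares of thinned cells with Spic, 41.2, 28.4 and 20.9 percent, stood in the same order. Id3 (chr4:136143497-136145755, plus strand), an inhibitor of basic helix-loop-helix factors, had 723 CPM (695 to 752) in dHep_IR, 922 CPM (889 to 956) in FL_IR and 976 CPM (951 to 1002) in FL_control.

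Counted by the 2-fold rule in Kupffer-like cells, dHep_IR against FL_IR had 0 of the 10 genes higher, where 3.03 percent of all genes tested were, and 1 lower (C6), where 6.61 percent were. Against FL_control, dHep_IR had 2 higher (Marco and Spic; 6.4 percent of all genes) and 2 lower (Clec4f and Folr2; 14.2 percent of all genes). FL_IR against FL_control had 1 higher (Marco; 6.71 percent of all genes) and 2 lower (Folr2 and Nr1h3; 8.78 percent of all genes). The median log2 ratio over the 10 genes was -0.11 for dHep_IR against FL_IR, -0.54 for dHep_IR against FL_control and -0.06 for FL_IR against FL_control. Over all genes tested it was -0.17, -0.17 and -0.01. The last 2 comparisons share the control library. A single cell of each library held a median of 7 of the 10 genes after thinning to 2000 UMIs, and 97.6, 97.6 and 94.7 percent of Kupffer-like cells had at least 5 of them.

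Markers of other cell types moved with the libraries inside Kupffer-like clusters. The 9 neutrophil markers summed to 1840 CPM in dHep_IR and 2511 CPM in FL_IR, with 0 of them absent, against 115 CPM in FL_control, where Cxcr2 and Ly6g were at 0. The 10 monocyte markers summed to 1413, 703 and 751 CPM, with Ace at 0 in FL_IR. The 7 hepatocyte markers summed to 118, 559 and 226 CPM and the 9 endothelial markers to 187, 197 and 385 CPM, with none of either list at 0. Their part in the differences above was not tested. Neutrophil-like cells themselves held 10.8, 8.24 and 4.16 CPM of Marco in dHep_IR, FL_IR and FL_control, and monocyte-like cells 17.6, 10.9 and 1.65 CPM, far under the Kupffer-like levels.

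In the whole C1q gate, without regard to clusters, dHep_IR stood apart. Clec4f had 1064 CPM (1042 to 1085) in dHep_IR, 3442 CPM (3384 to 3501) in FL_IR and 3905 CPM (3867 to 3944) in FL_control. Timd4 had 231, 494 and 423 CPM and Vsig4 679, 2454 and 1511 CPM. These values were 3.24-fold, 2.14-fold and 3.62-fold lower in dHep_IR than in FL_IR. C6 was at 151 CPM in dHep_IR, against 637 CPM in FL_IR and 411 CPM in FL_control, and was 4.20-fold lower in dHep_IR than in FL_IR (3.93 to 4.50). Cd5l was 2.08-fold and Folr2 2.35-fold lower in the same comparison. So 6 of the 10 genes were past 2-fold lower, where 11.6 percent of all genes tested were, and 0 were past 2-fold higher, where 5.76 percent were. The 4 that did not pass were Marco, Id3, Nr1h3 and Spic, the last with 178 CPM in both.

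dHep_IR against FL_control in the whole gate had 6 genes past 2-fold lower (Clec4f, Vsig4, Cd5l, Folr2, C6 and Nr1h3), beside 26.2 percent of all genes, and Marco past it higher, beside 5.84 percent. FL_IR against FL_control had Marco higher, beside 5.13 percent of all genes, and 0 lower, beside 17.6 percent. Median log2 ratios over the 10 genes were -1.07, -1.14 and 0.06 for dHep_IR against FL_IR, dHep_IR against FL_control and FL_IR against FL_control, with -0.25, -0.40 and -0.16 over all genes. The 6 lower calls against FL_IR became 1 (C6) when the gate was kept to Kupffer-like clusters. They became 3 (Clec4f, Vsig4 and C6) with TMM factors, another way to scale the sums, and the same 3 with the mean of per-cell CPM.

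**Figure D4:**
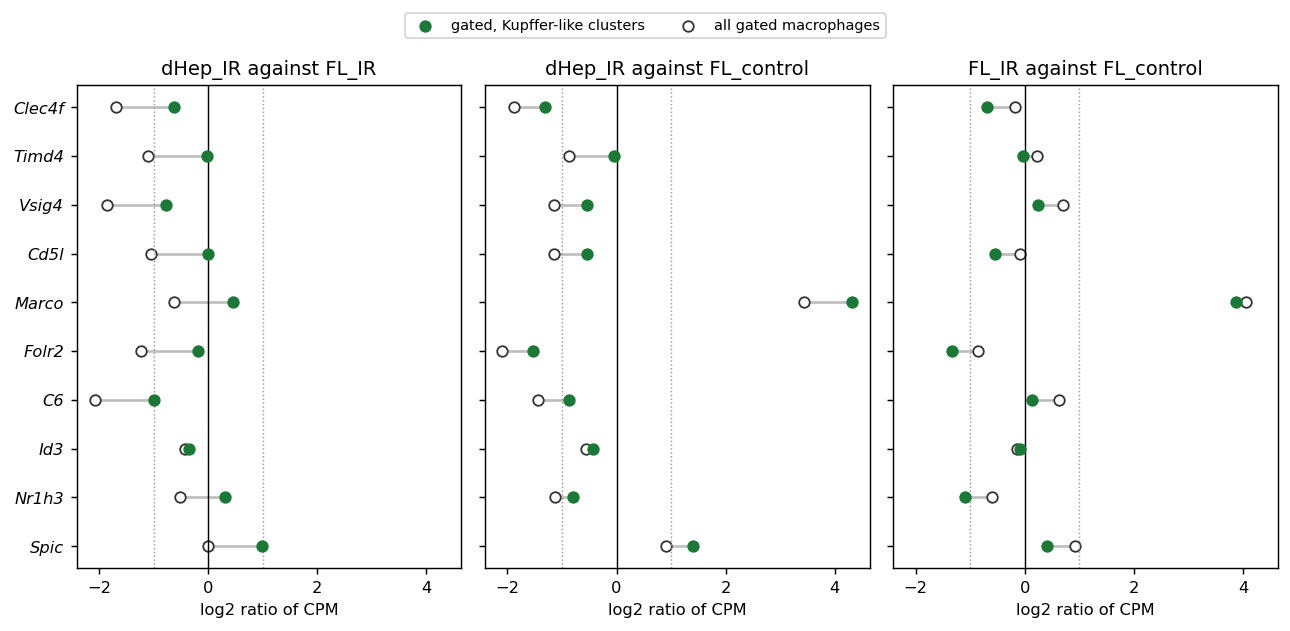
Log2 ratio of CPM (x axis) for each gene in 3 comparisons, in all gated macrophages (open points) and in gated cells of Kupffer-like clusters (filled points), with dotted lines at 2-fold. For dHep_IR against FL_IR the open points of Clec4f, Timd4, Vsig4, Cd5l, Folr2 and C6 lie at or beyond -1.05, while of the filled points C6 alone reaches the line, at -1.001.

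The monocyte-like cells that passed the gate carried little of most of these genes. In dHep_IR the 309 such cells had 10.8 CPM of Clec4f, 2.65 of Timd4, 7.28 of Vsig4, 12.1 of Cd5l, 30.4 of Marco and 0.882 of C6. They had 38.2 CPM of Nr1h3 and 21.4 of Spic, and Id3 was the exception with 570 CPM. After thinning, 145 of these 309 cells held none of the 10 genes and 1 held 5 or more. The 23 and 14 such cells of FL_IR and FL_control had 0 UMIs of Timd4. Their totals of 253618 and 167851 UMIs were too small to set that 0 against the 2.65 CPM of dHep_IR. The 309 cells held 4534537 of the 8847491 gated UMIs of dHep_IR. The dHep_IR to FL_IR ratio of Timd4 was 0.468 in the whole gate and 0.987 in Kupffer-like cells, and that of Cd5l was 0.481 and 1.003. For these genes the Kupffer-like level differed by less than counting error while the sum over the gate did not. Both were lower for Clec4f, Vsig4, C6 and Folr2, the last with ratios of 0.425 in the whole gate and 0.876 in Kupffer-like cells.

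The gated control cells of the unnamed cluster led by Prg4, Alox15 and Serpinb2 carried a different part of the list. Its 79 cells had 498 CPM of Timd4, 938 of Cd5l, 393 of Vsig4, 547 of Marco and 312 of Id3, but 8.58 of Clec4f, 62.2 of Folr2, 9.29 of Nr1h3 and 0.715 each of C6 and Spic. In the whole gate, thinned cells with Timd4 and no Clec4f numbered 8 in dHep_IR and 0 in FL_IR, against 41 in FL_control. Of those 41 cells, 37 lay in this cluster.

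Across classes, 9 of the 10 genes were concentrated in the gated macrophages, which held between 93.1 percent (Nr1h3) and 98.4 percent (Vsig4, Cd5l and Folr2) of each gene's UMIs over all kept cells. Id3 was the exception with 29.4 percent. Endothelial-like cells had 445 CPM of Id3 in dHep_IR and 411 CPM in FL_IR, against 1072 CPM in FL_control, the highest Id3 level among the classes with at least 50 cells in that library. Its level in control Kupffer-like cells was 976 CPM. C6 and Nr1h3 were also found in the 104 hepatocyte-like cells of FL_control, with 161 and 81.5 CPM from 124 and 63 UMIs. The 42 such cells of FL_IR had 6.68 and 33.4 CPM from 3 and 15 UMIs, which were not read as expression.

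The other 7 genes stood at 40.9 CPM or less in every named class of at least 50 cells outside the Kupffer-like one. Clec4f stood at 3.15, 9.63 and 29.3 CPM in T-like cells, 5.29, 13.5 and 22.5 CPM in endothelial-like cells and 1.88, 6.04 and 39.3 CPM in neutrophil-like cells of dHep_IR, FL_IR and FL_control. These low levels stood in the same order as those of the Kupffer-like cells. Marco in T-like cells was at 15.1, 6.88 and 3.34 CPM, again highest where Kupffer-like Marco was highest. Such levels were not read as expression, since free RNA was not removed. The 25 stellate or fibroblast-like cells of FL_control had 367 CPM of Clec4f, a class too small to rank.

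**Figure D5:**
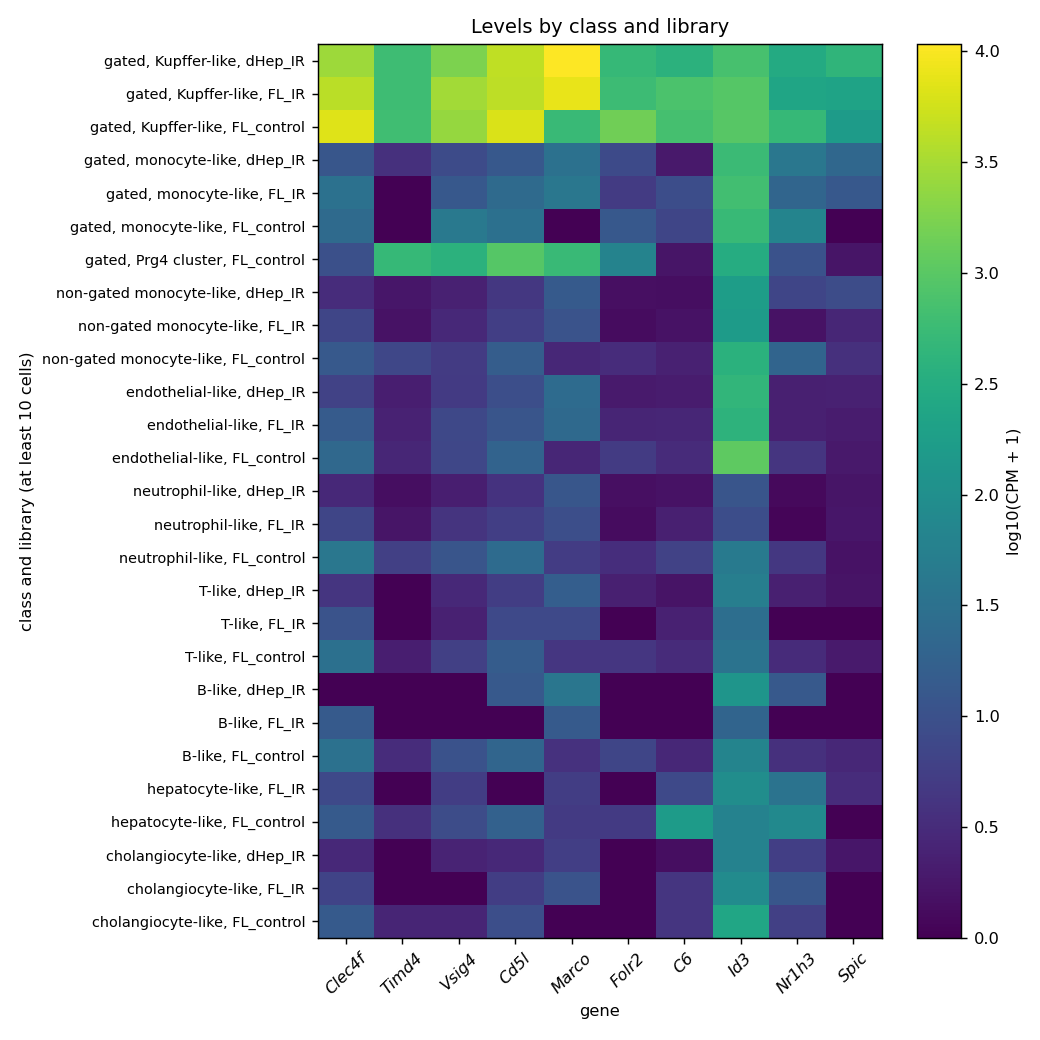
Level of each gene, as log10(CPM + 1) in colour, by class and library for groups of at least 10 cells. The gated Kupffer-like rows are high for all 10 genes, the row of the cluster led by Prg4 is high for Timd4, Vsig4, Cd5l and Marco and low for Clec4f, C6 and Spic, and Id3 is spread over many classes.

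Over 22 sums of class by library, the genes whose log2(CPM + 1) ran most like that of Clec4f were Cd5l (Pearson r 0.987), Vsig4 (0.977), Fcna (0.968), Folr2 (0.965) and Pcolce2 (0.961), out of 12441 genes ranked. The nearest to Marco were Cxcl13 (0.984), Spic (0.925) and 1700003F12Rik (0.925), and the nearest to Spic were Cxcl14 (0.979), Gfra2 (0.970) and Cd163 (0.968). These sums share libraries and depths, so the values are a description.

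Other genes of the Kupffer cell programme were set beside the list, with the same 2-fold rule in Kupffer-like cells. The shares of all genes past 2-fold in these cells were 3.03 percent higher and 6.61 percent lower for dHep_IR against FL_IR, 6.4 and 14.2 percent for dHep_IR against FL_control, and 6.71 and 8.78 percent for FL_IR against FL_control. The all-gene median log2 ratios to set beside the list medians below were -0.17, -0.17 and -0.01 in the same order. Of 16 other Kupffer genes, 0 were higher and 2 lower in dHep_IR against FL_IR (median log2 ratio -0.41). Against FL_control, 4 were higher and 1 lower in dHep_IR (-0.40), and 3 were higher and 1 lower in FL_IR (0.15). Hpgd, which degrades prostaglandins, stood at 81.1 CPM in dHep_IR, 365 CPM in FL_IR and 1501 CPM in FL_control, and was 4.50-fold lower in dHep_IR than in FL_IR (3.94 to 5.15). The haemoglobin scavenger Cd163 had 1698, 1720 and 574 CPM and the haem-degrading enzyme Hmox1 4301, 5521 and 1509 CPM in dHep_IR, FL_IR and FL_control. Vcam1, an adhesion molecule, had 968, 2169 and 428 CPM. Cd163, Hmox1 and Vcam1 were among the leading genes of cluster 11, which held most of the irradiated cells, so they describe that cluster. Clec1b, Cd163, Fcna, Cfp, Slc40a1 and Adgre1 of this list were also markers used to name the Kupffer-like clusters. Their presence in those clusters is therefore partly set by the naming.

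Of 10 liver X receptor targets, none passed 2-fold in dHep_IR against FL_IR (median log2 ratio -0.63), 3 were higher in dHep_IR against FL_control (0.21) and 3 were higher in FL_IR against FL_control (0.76), with 0 lower. The cholesterol exporter Abca1 had 529 CPM in dHep_IR, 726 CPM in FL_IR and 225 CPM in FL_control. The desaturase Scd2 had 310, 278 and 38.1 CPM. Both targets were thus higher in the irradiated libraries, where the receptor gene Nr1h3 was lower.

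Of 12 genes of the BMP and TGF-beta to ID axis, which in Kupffer cells of mice lies upstream of Id3, 0 passed 2-fold in dHep_IR against FL_IR, and 1 passed in each irradiated library against FL_control, lower in each case (Smad7 in dHep_IR, Eng in FL_IR). Medians of the log2 ratio were -0.34, -0.29 and -0.13 for dHep_IR against FL_IR, dHep_IR against FL_control and FL_IR against FL_control. Of 11 other macrophage transcription factors with enough UMIs, Maf was the 1 past 2-fold in dHep_IR against FL_IR, with 295 CPM in dHep_IR, 746 CPM in FL_IR and 916 CPM in FL_control. It was 2.53-fold lower there (2.35 to 2.73). Cebpb, a factor of the acute response, had 1564, 1935 and 885 CPM. The list medians were -0.12, -0.03 and -0.07.

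Among 9 scavenger and lectin receptors, 0 passed 2-fold in dHep_IR against FL_IR (median -0.26). Against FL_control, 2 were higher (Msr1 and Clec4n) and 2 lower (Cd36 and Cd209f) in dHep_IR (-0.32). In FL_IR, 0 were higher and 3 lower (Cd36, Clec12a and Cd209f) against FL_control (0.02). The fatty acid receptor Cd36 had 95 UMIs in dHep_IR, 147 in FL_IR and 698 in FL_control, and its CPM was 4.37-fold lower in dHep_IR than in FL_control. Msr1, the class A receptor most like Marco in function, had 911, 621 and 368 CPM, a 2.48-fold higher level in dHep_IR than in FL_control (2.34 to 2.62) beside the 19.9-fold of Marco. Of 8 genes for the uptake of dying cells, 1 was higher (Mfge8) and 1 lower (Havcr2) in dHep_IR against FL_IR (median -0.50). Against FL_control, 2 were higher (Mfge8 and Cd300lf) and 1 lower (Stab2) in dHep_IR (-0.41). In FL_IR, 2 of 7 were higher (Cd300lf and Havcr2) and 0 lower (0.23). The inhibitory receptor Cd300lf, picked for its large ratio, had 350 CPM in dHep_IR and 384 CPM in FL_IR, against 47.5 CPM in FL_control. Of the 6 other late complement genes, none had enough UMIs in Kupffer-like cells for dHep_IR against FL_IR and 1, C8g, for the comparisons with FL_control, so C6 was the only late component with a measurable ratio in all 3. The proton-coupled folate transporter Slc46a1 had 5, 3 and 38 UMIs in dHep_IR, FL_IR and FL_control.

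Of 10 genes of monocyte-derived macrophages, 2 were higher (Cd9 and Mmp12) and 0 lower in Kupffer-like cells of dHep_IR against FL_IR, among 6 with enough UMIs. In the whole gate 7 of the 10 were higher and 0 lower in that comparison, and 0 of the 16 other Kupffer genes were higher and 13 lower, where 5.76 percent of all genes were higher and 11.6 percent lower. In Kupffer-like cells the fractalkine receptor Cx3cr1 had 5 and 3 UMIs in dHep_IR and FL_IR, against 193 in FL_control. Ccr2, the receptor that draws monocytes to tissue, had 12 and 9 UMIs, against 88 in FL_control. Against FL_control, 3 of 9 measured genes were higher in dHep_IR (Ly6c2, Cd9 and Mmp12) and 4 lower, with a median log2 ratio of 0.53. FL_IR had 1 higher (Ly6c2) and 5 lower of 9, with a median of -1.11. Cx3cr1 and Ccr2 were thus among the lower genes of both irradiated libraries, beside others that were higher. Ccr2, Cx3cr1 and Ly6c2 were also markers used to name the monocyte-like clusters. Low counts of them in Kupffer-like cells, and the contrast with the whole gate, are therefore partly set by the naming.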

How the data were processed

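Droplet 3' single-cell RNA libraries of mouse liver were analysed. The authors deposited raw UMI counts per gene and barcode, and the submitters' processing notes list Cell Ranger 6.1.1, mm10, CASAVA 1.8 and Seurat 4.0.3 without giving their order. Cells with at least 500 UMIs, 250 genes and at most 25 percent mitochondrial UMIs were kept, Scrublet marked 291, 235 and 160 doublets (dHep_IR, FL_IR, FL_control), and Leiden clusters (scanpy 1.11.5, igraph 0.11.9) were named from fixed markers, with scoring details set after the clusters were seen. Clusters led by cycling genes, or by Prg4, stayed unnamed. Counts were summed per library and class as CPM, with exact Poisson, Clopper-Pearson and conditional ratio intervals at 95 percent. A prior count of 0.5 was added for log2 ratios, and genes needed 20 UMIs over both libraries. TMM factors came from edgeR 4.0.16. The calculations were tested on simulated counts. The total depth was 78694038, 59228905 and 52858425 UMIs. The 10 genes and the companion lists were chosen with earlier results of these data known. Named were the 10 genes, Gsdmd, the C1q genes, up to 4 genes of each list with large ratios, those most like Clec4f, and markers; Maf, Cx3cr1, Ccr2, Cd9, Mmp12, Msr1, Abca1, Slc46a1 and those most like Marco and Spic were partly named after their values were seen. The counts of the folate-handling list are not reported here.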

Additional observations from a re-analysis of the deposited data

How the results depend on the processing

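With 1 library per group, every limit here is one of counting and of processing, and variation between animals is not measured. No paired analysis was possible because each group has 1 library and no test was run. The main dependence was on which cells the gate takes. Kept to Kupffer-like clusters, the median log2 ratio was -0.11 for dHep_IR against FL_IR and -0.54 for dHep_IR against FL_control. The genes past 2-fold then were 1 lower for dHep_IR against FL_IR, 2 higher and 2 lower for dHep_IR against FL_control, and 2 lower for FL_IR against FL_control. Of 30 log2 ratios, 25 kept their direction. For dHep_IR against FL_IR, Cd5l moved to 0.0039, Marco to 0.46, Nr1h3 to 0.31 and Spic to 0.99, each below 0 over the whole gate (Spic with equal CPM in both), and Timd4 for FL_IR against FL_control moved to -0.03. For FL_IR against FL_control there were 2 lower in Kupffer-like and monocyte-like clusters together, and 1 lower (Folr2) with a gate of 10 UMIs, with the gate after thinning to 2000 UMIs or without the cluster led by Prg4, the last chosen after seeing the data. TMM factors moved the median log2 ratio of all genes to 0.03 for dHep_IR against FL_IR, -0.0018 for dHep_IR against FL_control and -0.04 for FL_IR against FL_control, with medians of the 10 genes at -0.80, -0.74 and 0.19. They gave 2 higher for FL_IR against FL_control, 3 lower for dHep_IR against FL_IR, and 2 higher and 3 lower for dHep_IR against FL_control. The mean of per-cell CPM gave 3 lower for dHep_IR against FL_IR. The gated share in dHep_IR, FL_IR and FL_control was 8.75, 7.01 and 10.3 percent with a gate of 10 UMIs, 5.01, 6.91 and 8.81 percent in Kupffer-like clusters, and 7.88, 5.75 and 10.5 percent after thinning. Over all alternatives, 28 of 30 medians and 53 of 66 counts kept close to their values, but 187 of 270 single-gene levels moved beyond counting error and 1 reversed, and 54 of 60 shares of cells with a UMI moved. Causes were not tested.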
